A study of Homo sapiens with 42 samples.

Results

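The nuclear genes of the mitochondrial respiratory chain and ATP synthase, together with the assembly factors that share their symbols, were followed in human melanoma cells treated with Aurora kinase inhibitors. Members were taken by symbol: every gene starting with NDUF (complex I and its assembly factors), SDHA to SDHD (complex II), UQCR (complex III), COX4 to COX8 (complex IV) or ATP5 (complex V). The symbols matched 101 genes among the 20036 with a named probe on the array, and 86 of them were above background, among 8917 such genes in all. Of the 86, 81 were coding genes of a complex or its assembly (38 for complex I, 7 for complex II, 8 for complex III, 11 for complex IV and 17 for complex V). The other 5 were the pseudogenes ATP5F1EP2, SDHAP1, SDHAP2, SDHAP3 and UQCRBP1, which resemble their parent genes closely enough that their probes may not separate the transcripts. The counts below are of the 81 coding genes unless stated.

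Total RNA of 1205Lu cells (a long-established line grown from a human melanoma metastasis) had been hybridised to 42 single-colour bead arrays in 11 groups. Cells received 0.5 µM AZD1152, which acts mainly on Aurora B, or 0.05 µM SNS-314, which acts on the Aurora kinases as a family, and were collected at 6, 12, 18, 24 and 48 h. There were 3 arrays per inhibitor at 6 h, 4 at each later time, and 4 of control cells at 0 h. No untreated cells of a later time were among the groups, so each comparison with 0 h holds the inhibitor and the time in culture together. The labels do not say whether replicates were separate cultures, so p-values measure only the spread between these samples. Precision is limited by this number of arrays.

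The electron transport chain passes electrons from NADH (complex I) and succinate (complex II) through complexes III and IV to oxygen, and complexes I, III and IV pump protons across the inner mitochondrial membrane. ATP synthase (complex V) uses the returning protons to make ATP. Most subunits are encoded in the nucleus and imported, the rest are encoded by mitochondrial DNA, and dedicated assembly factors put the complexes together without remaining in them.

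Replicate arrays correlated at 0.968 to 0.994, and 20.5% to 30.4% of probes were above background on each array. Among melanocyte lineage markers SOX10 and S100A1 were above background on 42 arrays, MLANA, PMEL, TYR, TYRP1 and S100B on 0 and MITF on 1. Of the fibroblast markers only PDGFRA was above background (42 arrays, 1 of 6 genes), and no leukocyte, endothelial or keratinocyte marker passed. The values are relative levels in bulk RNA: arrays were brought to one distribution, so less RNA per cell, fewer cells and a change shared by all genes cannot be told apart.

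Of the 86 genes, 81 were above background on all 42 arrays. NDUFS1 (33 arrays), NDUFV3 (29), UQCR11 (20), SDHAF4 (19) and the pseudogene SDHAP3 (12) were above it on fewer. The 15 genes not above background included the tissue-restricted isoforms COX4I2, COX6A2, COX6B2, COX7A1, COX7B2 and COX8C. The others were NDUFA5, NDUFAF8, NDUFB1, NDUFB2-AS1, NDUFB4, NDUFC2, NDUFS6, ATP5MK and SDHAP4. SDHB and UQCRFS1, and the subunits encoded by mitochondrial DNA, had no named probe and were not analysed here. Many members gave bright signals: 27 of 81 lay among the brightest 10% of the genes tested. The highest single value of a member was 56689 intensity units, against 69903 for any probe. How far bright probes understate a change was not tested.

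As a group these genes moved little with either inhibitor. The median log2 change against 0 h lay between -0.07 (SNS-314, 12 h) and 0.03 (AZD1152, 24 h) over the 10 comparisons, and the median of all genes stayed within 0.01 of 0. On single arrays the members' median difference from the control mean ran from -0.06 to 0.04 in the 4 controls, from -0.08 to -0.02 in the 4 AZD1152 arrays at 48 h and from -0.12 to -0.02 in the 4 SNS-314 arrays at 48 h. Both treated ranges at 48 h overlapped that of the controls. With SNS-314 at 12 h replicates 1 and 2 were at -0.01 and 0.02, and replicates 3 and 4 at -0.10 and -0.11. By the header digits described below, replicates 3 and 4 lay on bead chips without controls. Within the chips that held controls the median change for SNS-314 at 12 h was 0.01 and 0.02. Whether the chips account for this difference was not tested. Over the 10 comparisons 23 of 81 members (28.4%) were called at least once, where a call is a limma adjusted p under 0.05 over all 8917 genes, against 60.6% of all genes. Of the 23, 16 were only ever lower and 7 only ever higher, and the other 58 members were called in none. The 60.6% of all genes was not split by direction.

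**Figure D1:**
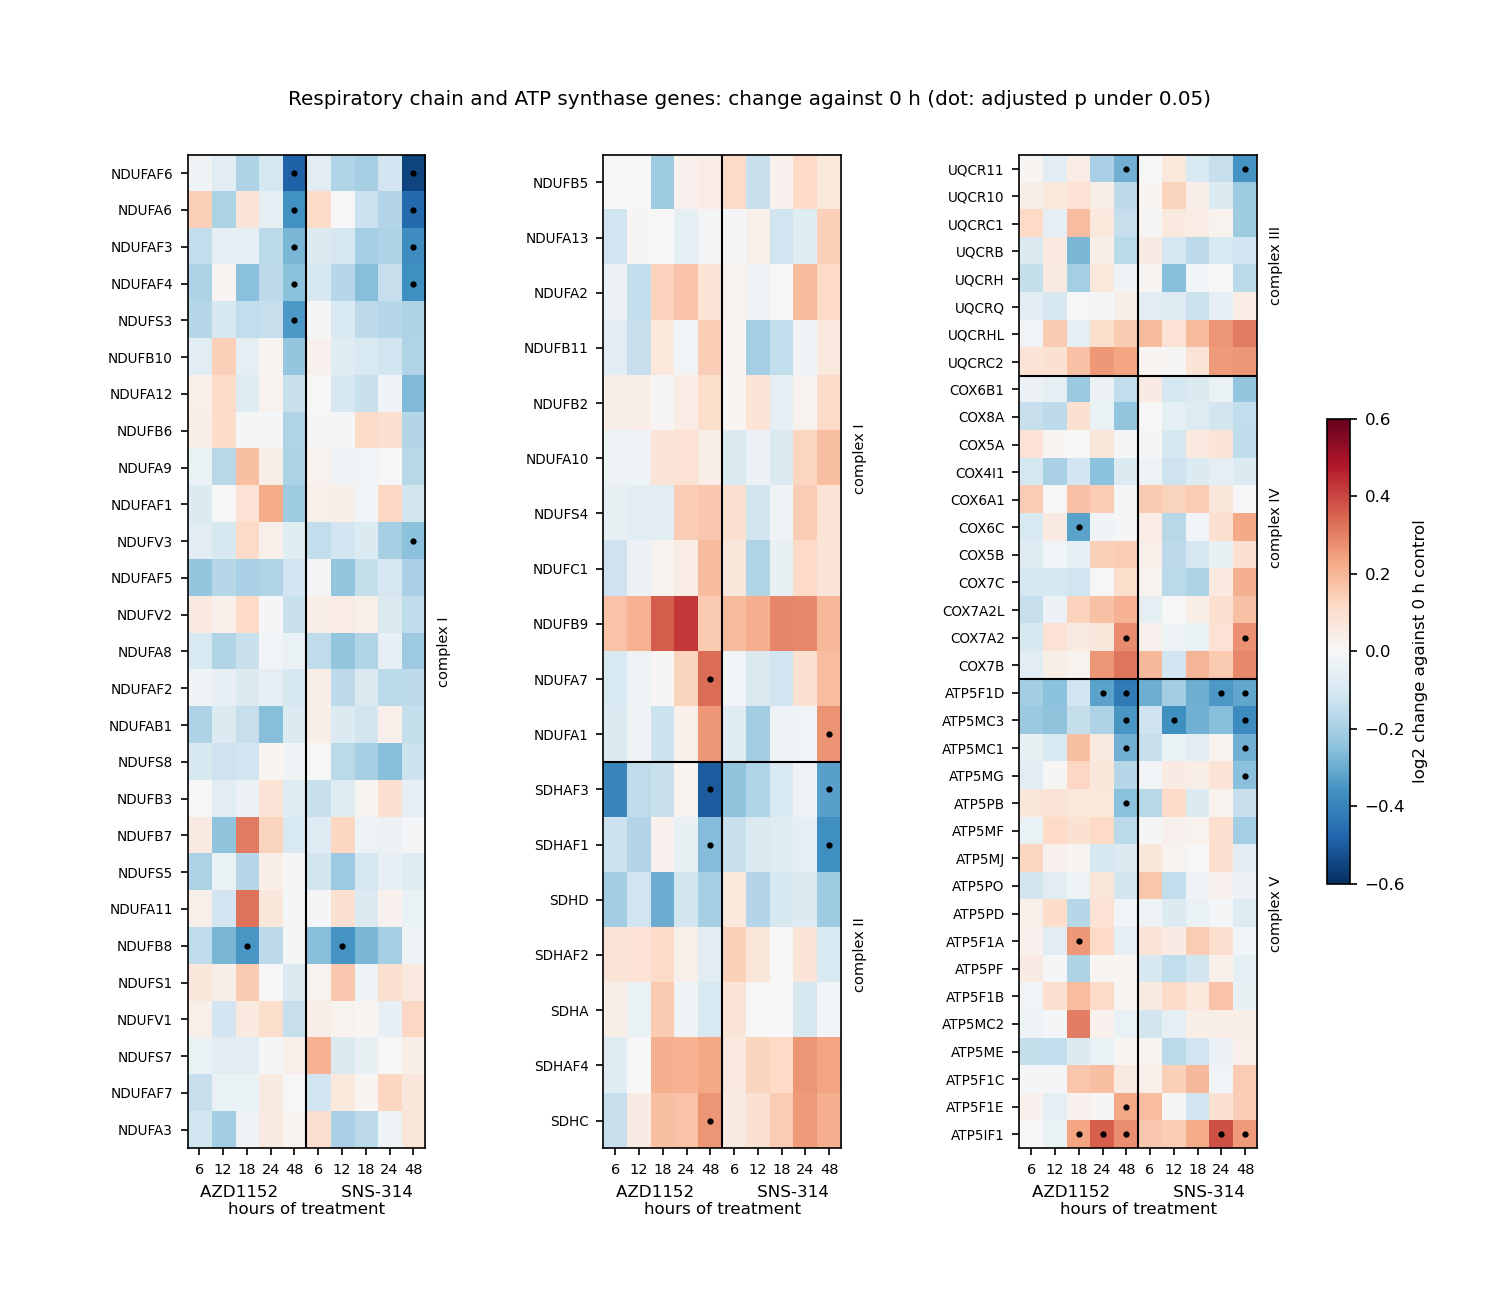
Log2 change against the 0 h control of the 81 coding members (rows, by complex, ordered by their mean change at 48 h) in each inhibitor and time (columns, hours), with blue for lower, red for higher and a dot for an adjusted p under 0.05. The dots gather in the 48 h columns and in a few rows, among them NDUFAF6, NDUFA6, ATP5F1D and ATP5IF1.

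Few members were called before 48 h. At 6 h no member passed with AZD1152 (2.69% of all genes were called, 1.2% higher and 1.49% lower) or SNS-314 (3.71%, with 1.93% higher and 1.78% lower), although 2 members in each had an unadjusted p under 0.05. In the alternative analyses 0 or 1 member was called with AZD1152 and 0 with SNS-314. At 12 h 0 members passed with AZD1152 (background 4.27%, with 1.45% higher and 2.83% lower; 5 members at an unadjusted p under 0.05, and 0 or 1 in the alternatives). With SNS-314 2 were lower and 0 higher (background 5.58%, with 3.63% lower and 1.95% higher). At 18 h 2 members were higher and 2 lower with AZD1152 (background 17.7%, with 8.02% higher and 9.72% lower). With SNS-314 at 18 h none passed (background 9.72%, with 4.08% higher and 5.64% lower; 7 members at an unadjusted p under 0.05, and 0 to 3 in the alternatives). At 24 h 1 member was higher and 1 lower with each inhibitor, against a background of 16.8% for AZD1152 (7.56% higher, 9.21% lower) and 19.8% for SNS-314 (9.11% higher, 10.7% lower), and the pair was ATP5IF1 and ATP5F1D in both.

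These early counts were small and moved with the processing and with single arrays. Over all alternatives the calls of AZD1152 ranged from 0 to 12 at 18 h and from 1 to 6 at 24 h, the upper ends with chip as a fixed block. Those of SNS-314 ranged from 0 to 2 at 12 h and from 1 to 6 at 24 h. The 4 calls of AZD1152 at 18 h became 0 without that group's replicate 1, 2 without its replicate 2 and 7 without its replicate 3. They became 2, 1 and 2 without control replicates 1, 2 and 3. The 2 calls of SNS-314 at 12 h became 0 without that group's replicate 3 or 4 or without control replicate 1, 2 or 3, and 1 without control replicate 4. The 2 calls of AZD1152 at 24 h became 1 without its replicate 3 or control replicate 3 or 4, and those of SNS-314 at 24 h became 1 without control replicate 4. The 0 calls of SNS-314 at 18 h became 1 without its replicate 2 or 3 or control replicate 1.

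NDUFB8, an accessory subunit of the complex I membrane arm, was called lower with SNS-314 at 12 h and AZD1152 at 18 h, and was near the control at 48 h. It was chosen for description after its values were seen, like COX6C and NDUFB9 below. Its log2 level was 14.77, 14.64, 14.69 and 14.49 in the controls, 14.39, 14.44, 14.27 and 14.07 with SNS-314 at 12 h, and 14.21, 14.47, 14.14 and 14.36 with AZD1152 at 18 h. Neither treated group overlapped the controls. The change was -0.35 ± 0.11 (SE, n = 4 per group, adjusted p = 0.041, limma) with SNS-314 at 12 h and -0.35 ± 0.11 (adjusted p = 0.0195, limma) with AZD1152 at 18 h. At 48 h it was -0.01 with AZD1152 and -0.03 with SNS-314. NDUFB8 was called in no other comparison with 0 h, and changed by -0.28 ± 0.11 with AZD1152 at 12 h (adjusted p = 0.156, limma). Both of its calls were lost without some single arrays, where no member passed in these groups.

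COX6C, a small subunit of complex IV, was 13.39, 13.67, 13.52 and 13.48 in the controls and 13.03, 13.29, 13.28 and 13.18 with AZD1152 at 18 h, without overlap (-0.32 ± 0.11, SE, adjusted p = 0.0419, limma). ATP5F1A, the alpha subunit of the catalytic head of ATP synthase, rose by 0.26 ± 0.09 in the same group (adjusted p = 0.0375, limma), and the 2 groups overlapped. NDUFB9, another accessory subunit of complex I, had the largest change before 48 h, 0.42 ± 0.22 with AZD1152 at 24 h, and did not pass (adjusted p = 0.197, limma).

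At 48 h 5 members were higher and 12 lower with AZD1152, 21% of 81 against 42.5% of all genes (20.8% higher, 21.8% lower). With SNS-314 3 were higher and 12 lower, 18.5% against 45.3% (22.3% higher, 23% lower). With both inhibitors 10 members were lower and 2 higher, while 19.2% and 18% of all genes were lower and higher with both. The 2 inhibitors share the 4 control arrays, so a call in both is not 2 separate observations. A further 8 members were called with exactly 1 inhibitor, 61 with neither, and 0 in opposite directions. All genes behaved alike in this: of 3317 called with both inhibitors 1605 were higher and 1712 lower with both. The share of all genes called with exactly 1 inhibitor was not counted. The labels do not name the bead chips, which were taken from the last 2 digits of each column header. By these digits the controls lay on 2 of 4 chips. Within those 2 chips, each with 2 controls and 1 array per inhibitor at 48 h, the members' median change was -0.02 and -0.05 for AZD1152 and -0.01 and -0.03 for SNS-314. With chip as a fixed block 20 members were called with AZD1152 at 48 h and 21 with SNS-314. Without the filter on dim probes 10 were called with AZD1152. Over all alternatives the counts ran from 10 to 23 with AZD1152 and from 11 to 21 with SNS-314.

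**Figure D2:**
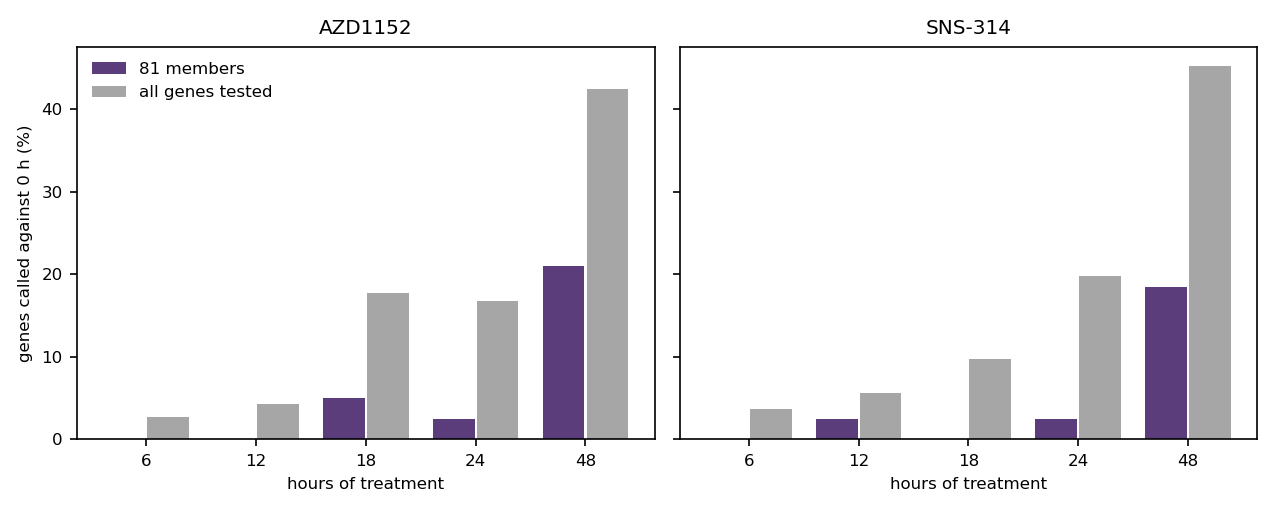
Percentage of genes with an adjusted p under 0.05 against the 0 h control (vertical axis) by hours of treatment (horizontal axis) for AZD1152 and SNS-314, in purple for the 81 members and in grey for all 8917 genes. The members' bar is the lower of each pair, at 21% against 42.5% with AZD1152 at 48 h and 18.5% against 45.3% with SNS-314 at 48 h.

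The members were measured about as precisely as other genes. The median standard error of the members' changes at 48 h was 0.108, against 0.113 over all genes. The standard deviation of the changes across members was 0.19 with AZD1152 and 0.20 with SNS-314, against 0.42 and 0.43 across all genes. At 48 h the 95% confidence interval of the change lay within 1.5-fold of the control in both directions for 76 of 81 members (93.8%) with each inhibitor, and for 65.7% and 64.1% of all genes. In every one of the 10 comparisons the interval of all 81 members lay within 2-fold, as did that of 91.5% to 99.5% of all genes. No member changed by more than 0.55 on the log2 scale (NDUFAF6, SNS-314, 48 h).

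By complex, the median log2 change at 48 h with AZD1152 and SNS-314 was -0.06 and -0.04 for complex I, -0.09 and -0.09 for complex II, and -0.08 and -0.14 for complex III. It was -0.01 and 0.09 for complex IV, and -0.05 and -0.05 for complex V. Calls were also counted by role. Among 7 complex I assembly factors 3 were lower with both inhibitors, and among 4 complex II assembly factors 2 were. Of the 6 core subunits of complex I and the 3 subunits of complex II measured, 0 were. Taken over all complexes, 5 of 68 subunits were lower with both inhibitors and 1 higher (8.82% called). Of the 13 assembly factors and regulators 5 were lower (38.5%) and 1 higher (7.69%), against 19.2% and 18% of all genes. In either direction 46.2% were called, against 37.2% of all genes. These classes were compared after earlier results of these data were known, and the difference between them was not tested.

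**Figure D3:**
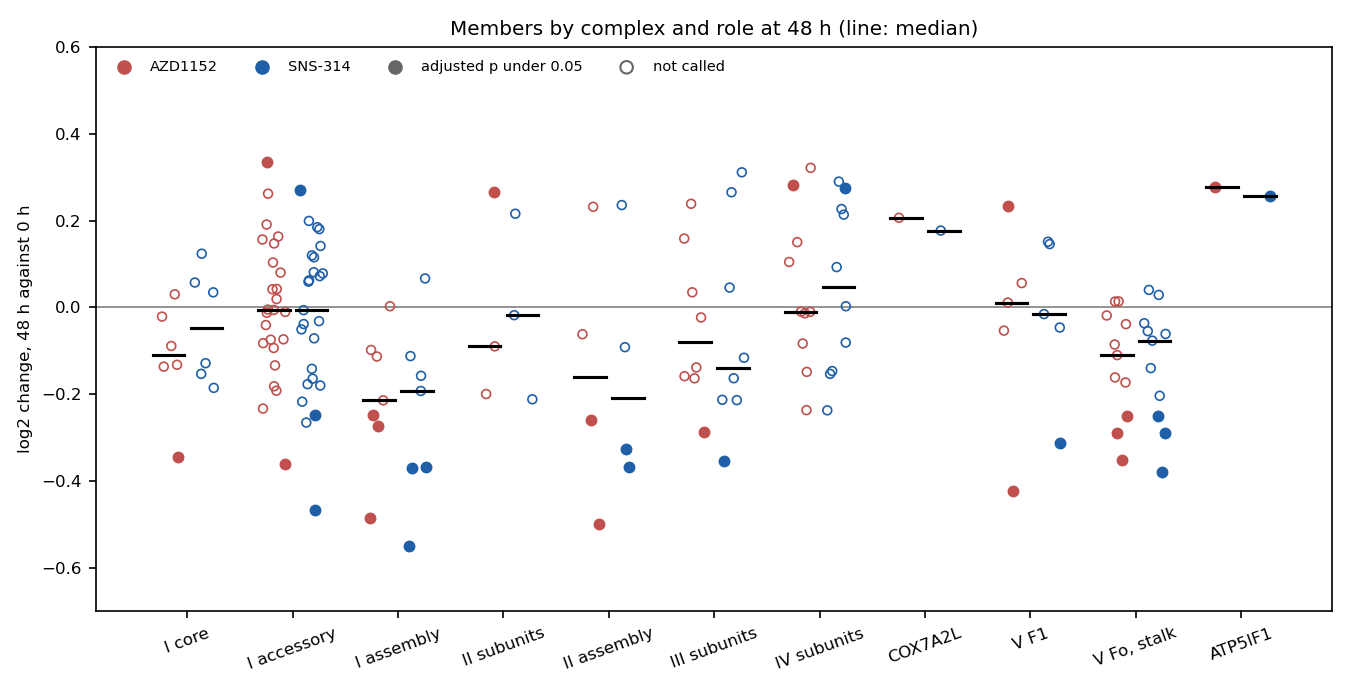
Log2 change at 48 h against 0 h (vertical axis) of each of the 81 members by complex and role, in red for AZD1152 and blue for SNS-314, filled where the adjusted p was under 0.05, with a black line at the median of each class. The filled points below 0 include 3 complex I and 2 complex II assembly factors in each inhibitor, and no point lies beyond 0.55 on either side.

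Of the complex I assembly factors 3 were lower with both inhibitors. NDUFAF6 (Entrez gene 137682, chromosome 8), needed early in complex I assembly, was 9.96, 9.98, 9.97 and 9.98 in the controls, 9.41, 9.47, 9.59 and 9.48 with AZD1152 at 48 h, and 9.34, 9.34, 9.35 and 9.67 with SNS-314 at 48 h. Every treated array lay below every control, and SNS-314 replicate 4 was the highest of its group. The changes were -0.48 ± 0.10 (SE, n = 4, adjusted p = 7.12e-05, limma) and -0.55 ± 0.10 (adjusted p = 9.71e-06, limma), or 1.40-fold and 1.46-fold lower. At 24 h the AZD1152 arrays were 9.78, 9.80, 9.98 and 9.90 and the SNS-314 arrays 9.92, 9.59, 9.94 and 9.98, overlapping the controls with AZD1152 and with SNS-314.

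NDUFAF3 (Entrez gene 25915, chromosome 3) and NDUFAF4 (Entrez gene 29078, chromosome 6) bind each other and act together in complex I assembly. NDUFAF4 fell outside the rule for named genes and was added after its values were seen. NDUFAF3 was 13.87, 13.81, 13.97 and 13.87 in the controls, 13.70, 13.63, 13.52 and 13.57 with AZD1152 at 48 h and 13.69, 13.49, 13.49 and 13.36 with SNS-314. NDUFAF4 was 9.55, 9.69, 9.62 and 9.86 in the controls, 9.47, 9.53, 9.47 and 9.25 under AZD1152 and 9.16, 9.36, 9.27 and 9.46 with SNS-314. In neither gene did a treated array reach the control range. NDUFAF3 fell by 0.27 with AZD1152 (SE 0.11, adjusted p = 0.0332, limma) and by 0.37 with SNS-314 (SE 0.11, adjusted p = 0.00367). NDUFAF4 fell by 0.25 (SE 0.09, adjusted p = 0.032, limma) and by 0.37 (SE 0.09, adjusted p = 0.00147). The other 4 complex I assembly factors (NDUFAF1, NDUFAF2, NDUFAF5 and NDUFAF7) were not called at 48 h.

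Among the complex I subunits NDUFA6 (Entrez gene 4700, chromosome 22), an LYR-motif accessory subunit that holds an acyl carrier protein, had the largest change. It was 10.24, 10.31, 10.14 and 10.29 in the controls, 9.94, 9.97, 9.90 and 9.72 with AZD1152 at 48 h and 9.81, 9.68, 9.82 and 9.79 with SNS-314, with no overlap. The changes were -0.36 ± 0.09 (SE, n = 4, adjusted p = 0.000838, limma) and -0.47 ± 0.09 (adjusted p = 2.82e-05, limma). NDUFAB1, which encodes the acyl carrier protein itself, changed by -0.08 and -0.14 and was not called.

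NDUFS3, a core subunit of the arm that reduces ubiquinone, was 12.75, 12.87, 12.63 and 12.79 in the controls and 12.48, 12.47, 12.40 and 12.32 with AZD1152 at 48 h, without overlap (-0.34 ± 0.11, SE, adjusted p = 0.0094, limma). With SNS-314 it was 12.75, 12.69, 12.35 and 12.52, overlapping the controls (-0.19 ± 0.11, adjusted p = 0.162, limma). The other core subunits did not pass. NDUFS1, the largest subunit of the NADH-oxidising arm, changed by -0.09 (95% interval -0.32 to 0.14) with AZD1152 and 0.06 (-0.17 to 0.29) with SNS-314. NDUFV1, which holds the flavin that accepts electrons from NADH, changed by -0.14 (-0.37 to 0.09) and 0.12 (-0.11 to 0.35). NDUFV2 changed by -0.13 and -0.15.

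A further 3 accessory subunits of complex I passed with 1 inhibitor. NDUFA7 was 0.34 ± 0.10 higher with AZD1152 (SE, adjusted p = 0.00778, limma). NDUFA1 was 0.27 ± 0.11 higher with SNS-314 (adjusted p = 0.0447, limma) and 0.26 ± 0.11 above the control with AZD1152 without passing (adjusted p = 0.0551). NDUFV3 was 0.25 ± 0.10 lower with SNS-314 (adjusted p = 0.0352, limma) and close to background. Its level was 8.44, 8.39, 8.89 and 8.68 in the controls and 8.41, 8.22, 8.34 and 8.44 with SNS-314, with overlap. NDUFA7 and NDUFV3 fell outside the rule for named genes and were added after their values were seen.

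In complex II 2 assembly factors were lower with both inhibitors. SDHAF3 and SDHAF1 are LYR-motif proteins that help to fit the iron-sulphur clusters of the SDHB subunit. SDHAF3 (Entrez gene 57001, chromosome 7) was 10.46, 10.43, 10.31 and 10.58 in the controls, 10.10, 9.9999, 9.85 and 9.83 with AZD1152 at 48 h and 10.30, 10.04, 10.12 and 10.02 with SNS-314. All treated arrays were below all controls, and the changes were -0.50 ± 0.12 (SE, n = 4, adjusted p = 0.00107, limma) and -0.33 ± 0.12 (adjusted p = 0.0286, limma). A second SDHAF3 probe, dimmer but above background on 42 arrays, changed by only -0.12 and -0.07.

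SDHAF1 (Entrez gene 644096, chromosome 19) was 9.24, 9.27, 9.35 and 9.24 in the controls, 8.98, 9.14, 9.05 and 8.88 under AZD1152 and 8.64, 9.02, 8.95 and 9.02 with SNS-314. The groups did not overlap, and SNS-314 replicate 1 was the lowest. The changes were -0.26 ± 0.10 (SE, adjusted p = 0.0294, limma) and -0.37 ± 0.10 (adjusted p = 0.00213, limma). Neither SDHAF2, which helps to attach the flavin of SDHA, nor SDHAF4 was called at 48 h.

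SDHA, the flavin-bearing catalytic subunit, was 11.26, 11.24, 11.16 and 11.17 in the controls, 11.06, 11.12, 10.95 and 11.34 with AZD1152 at 48 h and 11.33, 11.32, 11.23 and 10.88 with SNS-314. The treated arrays lay on both sides of the controls, and the change was -0.09 ± 0.13 and -0.02 ± 0.13 (adjusted p = 0.606 and 0.922, limma). A second, dimmer SDHA probe, above background on 42 arrays, changed by -0.25 with AZD1152 and 0.17 with SNS-314. SDHC, a membrane anchor subunit, was 12.09, 11.99, 12.12 and 12.13 in the controls and 12.17, 12.41, 12.26 and 12.56 with AZD1152, higher by 0.27 ± 0.10 (adjusted p = 0.0232, limma). With SNS-314 it was 0.22 ± 0.10 above the control and did not pass (adjusted p = 0.063). A second SDHC probe went the other way, by -0.08 and -0.07. SDHD, the other membrane anchor, changed by -0.20 ± 0.13 and -0.21 ± 0.13 (adjusted p = 0.231 and 0.194, limma).

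Of the SDHA pseudogenes, SDHAP2 was 0.23 ± 0.09 higher with AZD1152 (adjusted p = 0.0333, limma) and 0.24 ± 0.09 higher with SNS-314 (adjusted p = 0.0286, limma) at 48 h. SDHAP1 was 0.41 ± 0.14 higher with SNS-314 at 48 h (adjusted p = 0.0138, limma), and its 4 passing probes ranged from -0.44 to 0.41 in that comparison.

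In complex III 1 of 8 measured genes was called with both inhibitors. UQCR11 (Entrez gene 10975, chromosome 19), a small accessory subunit, was 8.37, 8.48, 8.55 and 8.46 in the controls, 8.32, 8.16, 8.08 and 8.16 with AZD1152 at 48 h and 7.94, 8.20, 8.10 and 8.21 with SNS-314. The groups did not overlap, and the changes were -0.29 ± 0.10 (SE, adjusted p = 0.0158, limma) and -0.35 ± 0.10 (adjusted p = 0.003, limma). The probe was dim. It was above background on 1 control array, 1 AZD1152 array and 0 SNS-314 arrays of those times, so the sizes of these changes rest on values near background. UQCRC1 and UQCRC2, the large matrix-facing subunits, lay on opposite sides of the control without passing: -0.14 and -0.21 for UQCRC1, and 0.24 and 0.27 for UQCRC2. UQCRH changed by -0.02 and -0.16 on its brighter probe and by 0.33 and 0.30 on its dimmer one.

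In complex IV COX7A2 (Entrez gene 1347, chromosome 6), the isoform of subunit 7A found in most non-muscle tissues, was the 1 of 11 members called at 48 h. It was 13.49, 13.34, 13.46 and 13.58 in the controls, 13.94, 13.76, 13.73 and 13.56 with AZD1152 at 48 h and 13.74, 13.87, 13.71 and 13.63 with SNS-314. The SNS-314 arrays were all above the controls, and 1 AZD1152 array was within their range. The changes were 0.28 ± 0.10 (SE, n = 4, adjusted p = 0.0184, limma) and 0.27 ± 0.10 (adjusted p = 0.0203, limma). COX7B, another small subunit, was 0.32 ± 0.14 and 0.29 ± 0.14 above the control without passing (adjusted p = 0.0696 and 0.0983, limma). COX7A2L, which joins complexes III and IV into supercomplexes, was 0.21 ± 0.11 and 0.18 ± 0.11 above it (adjusted p = 0.12 and 0.179, limma).

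Of the other subunits of complex IV none was called at 48 h. COX4I1, the regulatory subunit that binds ATP, was 14.53, 14.61, 14.44 and 14.71 in the controls, 14.51, 14.74, 14.23 and 14.48 with AZD1152 at 48 h and 14.53, 14.63, 14.37 and 14.45 with SNS-314. Its change was -0.08 with each inhibitor (95% interval -0.35 to 0.18 in both). COX5A changed by -0.01 and -0.15, COX6A1 by -0.01 and 0.00, and COX8A by -0.24 and -0.15 (adjusted p = 0.0978 and 0.312, limma). The COX8A arrays of both inhibitors lay outside the control range.

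In complex V 3 members were lower and 1 higher with both inhibitors. ATP5F1B, the catalytic beta subunit and the brightest coding member, was 14.997, 15.15, 15.30 and 15.21 in the controls, 15.15, 14.97, 15.28 and 15.31 with AZD1152 at 48 h and 15.21, 15.09, 15.01 and 15.16 with SNS-314. Its change was 0.01 (95% interval -0.19 to 0.21) and -0.05 (-0.25 to 0.16). ATP5F1A and ATP5F1C, the alpha and gamma subunits, changed by -0.05 and 0.06 with AZD1152 and by -0.02 and 0.15 with SNS-314. ATP5F1E, the small epsilon subunit, was 0.23 ± 0.10 higher with AZD1152 (adjusted p = 0.0473, limma) and 0.15 ± 0.10 above the control with SNS-314 (adjusted p = 0.216, limma).

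ATP5F1D (Entrez gene 513, chromosome 19), the delta subunit of the central stalk, was called lower at 24 and 48 h. It was 11.53, 11.65, 11.79 and 11.89 in the controls, 11.46, 11.36, 11.13 and 11.20 with AZD1152 at 48 h and 11.35, 11.38, 11.35 and 11.53 with SNS-314 at 48 h. The AZD1152 arrays were all below the controls, and SNS-314 replicate 4 reached the control range. The changes were -0.42 ± 0.10 (SE, n = 4, adjusted p = 0.000717, limma) and -0.31 ± 0.10 (adjusted p = 0.0103, limma). At 24 h they were -0.32 ± 0.10 (adjusted p = 0.0223, limma) and -0.34 ± 0.10 (adjusted p = 0.0123, limma). Values at 6 and 18 h with SNS-314 were also below the control without passing, at -0.29 ± 0.11 and -0.29 ± 0.10 (adjusted p = 0.159 and 0.0554, limma). With AZD1152 at 6, 12 and 18 h they were -0.21, -0.24 and -0.11, also without passing. ATP5F1D was not called with SNS-314 at 12 h either. A second, dimmer ATP5F1D probe changed by -0.25 and -0.33 at 48 h.

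ATP5MC1, ATP5MC2 and ATP5MC3 encode the same mature subunit c of the rotor ring from separate genes. ATP5MC3 (Entrez gene 518, chromosome 2) was 9.62, 9.69, 9.53 and 9.68 in the controls, 9.50, 9.35, 9.28 and 8.99 with AZD1152 at 48 h and 9.35, 9.26, 9.20 and 9.19 with SNS-314. ATP5MC1 (Entrez gene 516, chromosome 17) was 12.55, 12.59, 12.79 and 12.69 in the controls, 12.42, 12.48, 12.28 and 12.29 under AZD1152 and 12.40, 12.50, 12.30 and 12.27 with SNS-314. No treated array of either gene reached the controls. ATP5MC3 changed by -0.35 ± 0.11 (SE, adjusted p = 0.0113, limma) and -0.38 ± 0.11 (adjusted p = 0.0058), and ATP5MC1 by -0.29 ± 0.10 (adjusted p = 0.014, limma) and -0.29 ± 0.10 (adjusted p = 0.0126). ATP5MC2 changed by -0.04 ± 0.11 and 0.04 ± 0.11 (adjusted p = 0.812 and 0.795, limma). ATP5MC3 was also lower with SNS-314 at 12 h, by -0.37 ± 0.11 (adjusted p = 0.0456, limma).

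In the stator, ATP5PB, the b subunit of the peripheral stalk, was 0.25 ± 0.10 lower with AZD1152 (adjusted p = 0.0473, limma), and ATP5MG, a membrane subunit that takes part in dimer formation, was 0.25 ± 0.08 lower with SNS-314 (adjusted p = 0.0135, limma). Both were named after their values were seen. A second, dimmer ATP5MG probe, above background on 42 arrays, changed by -0.06 with AZD1152 and 0.03 with SNS-314 at 48 h. A second ATP5PB probe changed by -0.23 and -0.28. ATP5PO, which joins the stalk to the head, changed by -0.11 and -0.04 and was not called.

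ATP5IF1 (Entrez gene 93974, chromosome 1), the inhibitor that blocks ATP hydrolysis by the enzyme, was the member called most often as higher. It was 10.54, 10.49, 10.31 and 10.62 in the controls and 10.52, 10.48 and 10.48 with AZD1152 at 6 h. At 24 h it was 10.92, 10.83, 10.74 and 10.90 under AZD1152 and 10.85, 10.91, 10.90 and 10.82 with SNS-314, and at 48 h 10.87, 10.68, 10.66 and 10.86, and 10.85, 10.79, 10.67 and 10.66. At 24 and 48 h every treated array was above every control. The changes were 0.36 ± 0.08 and 0.38 ± 0.08 at 24 h (SE, adjusted p = 0.0017 and 0.000787, limma) and 0.28 ± 0.08 and 0.26 ± 0.08 at 48 h (adjusted p = 0.00693 and 0.0115, limma). With AZD1152 at 18 h it was 0.24 ± 0.08 (adjusted p = 0.0435, limma). These values are of the brighter of 2 probes. The dimmer one, above background on 31 arrays, changed by -0.38 and -0.10 at 48 h. With both probes averaged the change was 0.29 with each inhibitor at 24 h, which passed, and -0.05 and 0.08 at 48 h, which did not, and which probe represents the main transcript was not tested.

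**Figure D4:**
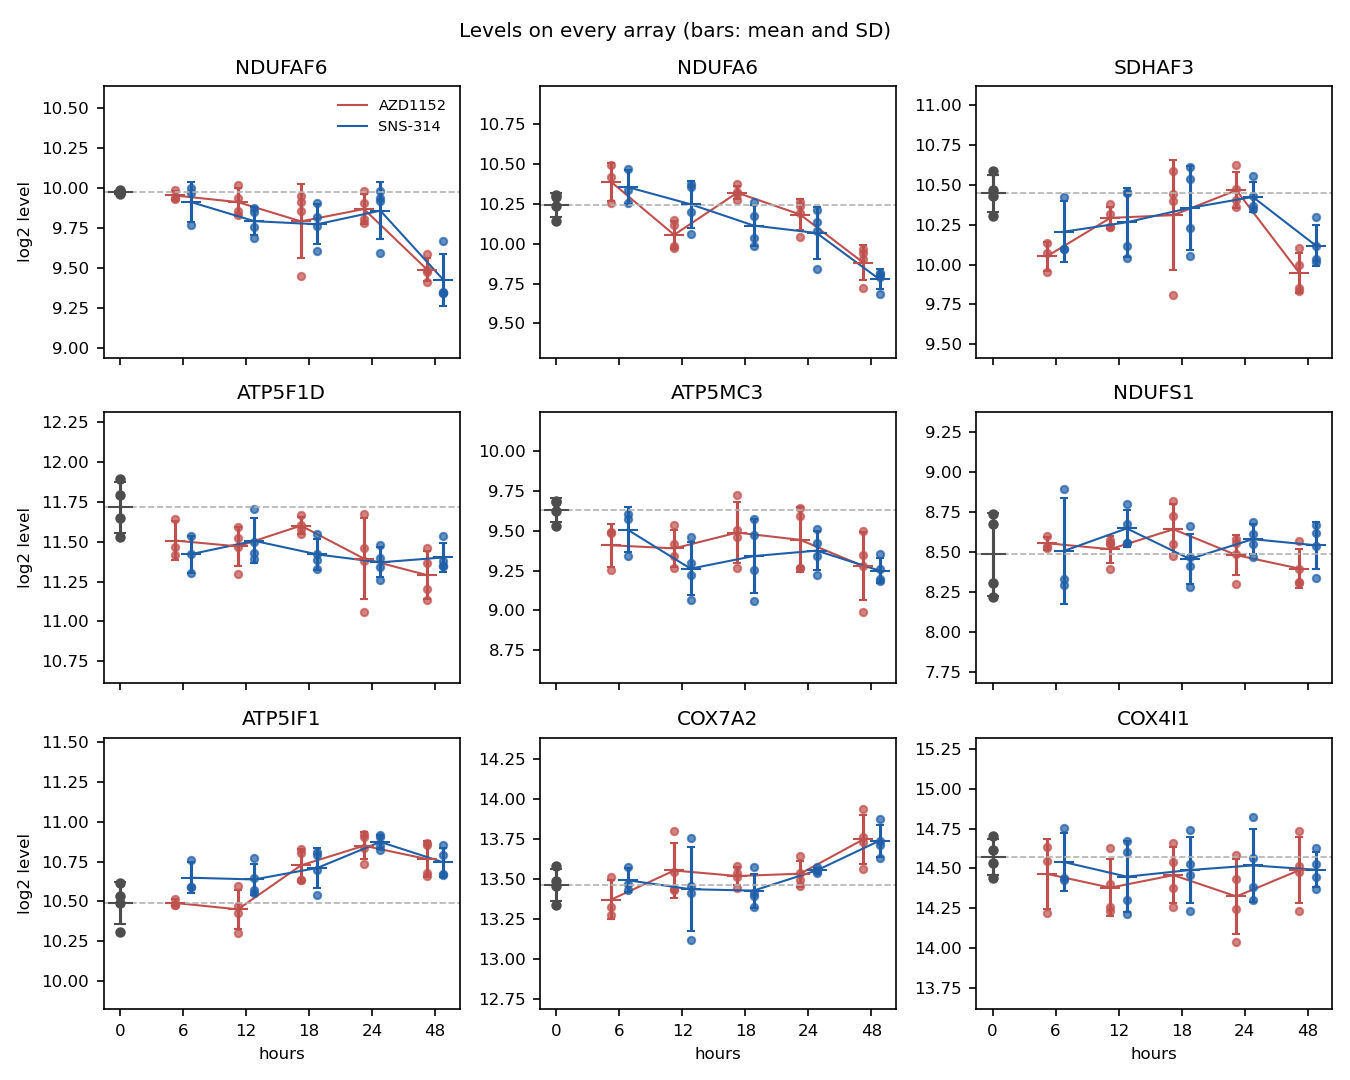
Log2 level (vertical axis, each panel spanning the same height) on every array over hours of treatment (horizontal axis, not to scale) for 9 members, with grey points for the 0 h controls, red for AZD1152 and blue for SNS-314, bars for mean and SD, and a dashed line at the control mean. NDUFAF6 and NDUFA6 lie below the control range at 48 h, ATP5IF1 lies above it at 24 and 48 h, and NDUFS1 and COX4I1 overlap it throughout.

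Some of these calls were lost without single arrays or under other processing. Across 19 alternative settings, leaving out single arrays included (18 for UQCR11), the call at 48 h was kept in all for NDUFAF6 and NDUFA6 with both inhibitors. It was also kept in all for NDUFS3, SDHAF3 and ATP5F1D with AZD1152, and for NDUFAF3, SDHAF1, UQCR11 and ATP5MC3 with SNS-314. ATP5F1D with SNS-314 did not pass without control replicate 4 (-0.25, adjusted p = 0.0563). ATP5MC3 with AZD1152 did not pass without that group's replicate 4 (-0.25, adjusted p = 0.0853), and ATP5MC1 did not without control replicate 3 (-0.21 with each inhibitor, adjusted p = 0.061 and 0.0557). UQCR11 with AZD1152 was lost without that group's replicate 3 or control replicate 3 (adjusted p up to 0.0542).

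COX7A2 was lost without the filter on dim probes, with SNS-314 also under 75th percentile scaling, and without AZD1152 replicate 1, SNS-314 replicate 2 or control replicate 2 in the comparisons those arrays enter (adjusted p up to 0.0927 and 0.0764). ATP5IF1 with SNS-314 was lost without control replicate 3, and with both inhibitors when its 2 probes were averaged (-0.05 and 0.08, adjusted p up to 0.619 and 0.418). NDUFAF3 and SDHAF1 with AZD1152 passed in 11 and 12 of 19 settings, SDHAF3 with SNS-314 in 13, SDHC with AZD1152 in 14, ATP5F1E with AZD1152 in 12, NDUFA1 with SNS-314 in 10, SDHAP1 with SNS-314 in 16, and SDHAP2 in 13 with each inhibitor. With chip as a fixed block, and also under 75th percentile scaling, the calls of NDUFAF3 and SDHAF1 with AZD1152 and of NDUFA1 with SNS-314 were lost, that of NDUFA1 also with chip as a random block. Before 48 h, ATP5IF1 at 24 h passed in 19 of 19 settings with each inhibitor, averaged probes included. ATP5F1D at 24 h passed in 12 with AZD1152 and 18 with SNS-314. ATP5IF1 and ATP5F1A with AZD1152 at 18 h passed in 11 and 10, and ATP5MC3 with SNS-314 at 12 h in 9. The calls of members named outside the rule (NDUFAF4, NDUFA7, NDUFV3, ATP5PB, ATP5MG, NDUFB8 and COX6C) were not followed gene by gene over these settings.

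The 2 inhibitors were set side by side at doses that differ (0.5 and 0.05 µM). No member was called between AZD1152 and SNS-314 at 6, 12, 18, 24 or 48 h, and 0%, 0%, 0.0336%, 0% and 0% of all genes were. An unadjusted p under 0.05 was found for 0, 5, 7, 3 and 2 members, and no alternative analysis called one. At 48 h the 95% interval of the difference lay within 1.5-fold for 81 of 81 members and for 98.2% of all genes. The largest difference at 48 h was NDUFV1, 0.26 ± 0.11 lower with AZD1152 (unadjusted p = 0.0269, adjusted p = 1, limma). At 18 h NDUFA11, an accessory subunit of complex I named after its value was seen, was 0.41 ± 0.13 higher with AZD1152 (adjusted p = 0.258, limma).

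Set against 6 h of the same inhibitor, which leaves out the 0 h arrays, 8 members were higher and 5 lower at 48 h with AZD1152 (background 42.1%, with 21.3% higher and 20.9% lower), and 1 was higher and 7 lower with SNS-314 (46.1%, with 22.9% higher and 23.2% lower). With each array scaled to its 75th percentile instead, these became 4 higher and 8 lower with AZD1152 and 0 higher and 16 lower with SNS-314. The SNS-314 count became 4 without that inhibitor's 6 h replicate 1 and 5 without its 6 h replicate 2. NDUFAF6 was lower by 0.46 and 0.49 and NDUFA6 by 0.51 and 0.58 with AZD1152 and SNS-314, and these passed. UQCR11 also passed as lower in both, but was above background on at most 1 array of each of these groups, so no size is given. NDUFA1 was higher by 0.34 in both and passed. COX7A2 was higher by 0.38 and ATP5IF1 by 0.27 with AZD1152 and passed. With SNS-314 they were 0.25 and 0.10 above 6 h without passing (adjusted p = 0.0525 and 0.397, limma). Neither inhibitor gave a call for ATP5F1D (-0.22 and -0.02), ATP5MC1 (-0.24 and -0.15) or ATP5MC3 (-0.13 and -0.26). NDUFAF3 and NDUFAF4 passed as lower with SNS-314 (-0.29 and -0.27) but not with AZD1152 (-0.12 and -0.06).

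Promoters are shown because NRF1 and the ETS factor GABP (also called NRF2) are known activators of nuclear respiratory genes. In the RefSeq promoter table (GRCh38.p14), 69 of the 81 members had an entry, and the 250 bases before the start were searched on both strands. The NRF1 letters GCGCATGC were in 10 of 69 members (14.5%), against 5.14% of the promoters of all genes tested and 2.81% of all 27305 promoters. The ETS letters CCGGAAG were in 18 (26.1%), against 17.0% and 8.82%, and the YY1 letters AAGATGG in 4 (5.8%), against 3.35% and 3.77%. Of 7 members lower with both inhibitors at 48 h that had an entry, 1 held the NRF1 letters and 3 the ETS letters. Of the 60 members called in neither or in 1, 9 held the NRF1 letters and 15 the ETS letters. A match is a description of the letters and not a bound site.

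The 4 lower members with such letters are printed with ATP5IF1, which was higher and held none, and SDHD, which was not called and held both. They run 5′ to 3′ on the gene's strand and end at the base before the start, with the NRF1 or ETS letters (or their reverse complement) in capitals. The windows are chr22:42090773-42091022 (minus strand) for NDUFA6, chr7:97117448-97117697 (plus) for SDHAF3, chr6:96897892-96898141 (minus) for NDUFAF4, chr19:1605463-1605712 (minus) for UQCR11, chr1:28235874-28236123 (plus) for ATP5IF1 and chr11:112086623-112086872 (plus) for SDHD. NDUFA6 and SDHD carry the NRF1 letters, overlapping on both strands in SDHD, and SDHAF3, NDUFAF4, UQCR11 and SDHD the ETS letters, in UQCR11 on both strands.
NDUFA6: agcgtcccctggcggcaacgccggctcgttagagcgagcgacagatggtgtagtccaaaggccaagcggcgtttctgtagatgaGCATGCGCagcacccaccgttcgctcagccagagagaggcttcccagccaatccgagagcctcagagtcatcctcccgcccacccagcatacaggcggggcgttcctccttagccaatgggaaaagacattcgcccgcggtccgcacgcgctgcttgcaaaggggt
SDHAF3: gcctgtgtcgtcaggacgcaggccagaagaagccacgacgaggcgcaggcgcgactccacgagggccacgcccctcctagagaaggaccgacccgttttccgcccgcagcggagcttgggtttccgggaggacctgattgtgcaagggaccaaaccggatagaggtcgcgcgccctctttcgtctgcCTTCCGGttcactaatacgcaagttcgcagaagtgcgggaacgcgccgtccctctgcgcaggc
NDUFAF4: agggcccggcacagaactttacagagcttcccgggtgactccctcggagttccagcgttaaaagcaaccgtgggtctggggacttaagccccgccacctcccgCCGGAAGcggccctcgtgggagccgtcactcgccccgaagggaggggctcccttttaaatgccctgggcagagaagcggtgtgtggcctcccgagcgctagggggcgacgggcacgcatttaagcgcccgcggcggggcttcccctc
UQCR11: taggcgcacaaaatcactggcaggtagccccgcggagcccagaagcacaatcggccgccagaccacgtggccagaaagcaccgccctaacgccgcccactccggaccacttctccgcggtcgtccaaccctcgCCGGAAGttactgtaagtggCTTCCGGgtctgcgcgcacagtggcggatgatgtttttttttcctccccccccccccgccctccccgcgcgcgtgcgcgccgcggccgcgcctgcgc
ATP5IF1: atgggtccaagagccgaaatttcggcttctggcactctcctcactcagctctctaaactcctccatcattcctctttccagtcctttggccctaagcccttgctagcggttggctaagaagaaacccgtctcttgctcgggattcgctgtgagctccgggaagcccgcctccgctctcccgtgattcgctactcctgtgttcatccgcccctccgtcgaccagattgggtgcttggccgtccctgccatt
SDHD: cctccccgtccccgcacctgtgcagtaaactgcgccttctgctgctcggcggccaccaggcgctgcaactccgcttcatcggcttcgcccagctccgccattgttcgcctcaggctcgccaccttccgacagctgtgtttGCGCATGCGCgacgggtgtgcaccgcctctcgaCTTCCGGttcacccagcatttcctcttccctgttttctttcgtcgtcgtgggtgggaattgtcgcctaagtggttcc

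Genes around the chain, in lists drawn up from knowledge of the pathway, are given for 48 h. In mitochondrial protein import 13 of 24 genes were lower with AZD1152 and 12 with SNS-314, and 0 were higher (median -0.33 and -0.29). TOMM40, the channel of the outer membrane, changed by -0.89 ± 0.11 and -0.97 ± 0.11 (adjusted p = 1.37e-08 and 2.09e-09, limma), and TIMM10, a chaperone between the membranes, by -0.84 ± 0.16 and -0.99 ± 0.16. Among 16 regulators of mitochondrial biogenesis 7 and 8 were lower and 1 higher with AZD1152 and SNS-314 (median -0.23 and -0.25). TFAM, which packages and transcribes mitochondrial DNA, changed by -0.97 ± 0.12 and -1.03 ± 0.12 (adjusted p = 5.44e-09 and 1.2e-09, limma). The coactivator PPARGC1A was higher, by 0.51 ± 0.13 and 0.61 ± 0.13 (adjusted p = 0.00147 and 0.000195, limma). GABPB1 changed by -0.33 and -0.39 and was called, while its partner GABPA changed by 0.03 in both and was not.

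Among 38 assembly factors with other symbols 11 were lower and 4 higher with AZD1152, and 9 lower and 7 higher with SNS-314 (median -0.13 and -0.14). TMEM70, needed to assemble ATP synthase, changed by -0.83 ± 0.08 and -0.86 ± 0.08 (adjusted p = 8.82e-11 and 2.81e-11, limma), and FMC1, which also serves ATP synthase assembly, by 0.39 ± 0.16 and 0.72 ± 0.16 (adjusted p = 0.0418 and 0.000199). Of 14 other carriers and subunits 3 were lower and 1 higher with AZD1152, and 4 lower and 1 higher with SNS-314. PDSS1, which makes the tail of coenzyme Q, changed by -1.02 ± 0.10 and -0.996 ± 0.10 (adjusted p = 8.61e-11 and 1.45e-10, limma). CYC1, the cytochrome subunit of complex III that carries another symbol, changed by -0.24 (adjusted p = 0.0722, limma) and -0.33 (adjusted p = 0.0114). Cytochrome c (CYCS) changed by -0.04 and -0.13 without passing. Of 17 tricarboxylic acid cycle genes 5 were lower and 0 higher with AZD1152, and 4 lower and 1 higher with SNS-314, among them IDH3A (-0.60 ± 0.12 and -0.48 ± 0.12) and citrate synthase, CS (-0.47 ± 0.10 and -0.50 ± 0.10). The counts of these lists are split by direction, so each is to be read against the share of all genes called that way. For lower calls at 48 h that share was 21.8% under AZD1152 and 23% under SNS-314. For higher calls it was 20.8% and 22.3%, and for either direction 42.5% and 45.3%. Whether any list differed from these shares was not tested. COXFA4, long known as NDUFA4 and now placed in complex IV, is not a member by symbol and changed by 0.08 and 0.06 without passing.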

How the data were processed

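Total RNA of 1205Lu cells in 11 groups was measured on 42 Illumina bead arrays, and samples were grouped by their titles and treatment and time labels. The deposited non-normalized table holds 1 summary intensity per probe and array, per the file headers. It carries 2 header lines that disagree. The second, which names drug, time and replicate, was used because its columns matched those of the authors' deposited log2 table for 42 of 42 arrays. How the authors normalized those log2 values is not stated by any source used here, and they served as an alternative.

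Background was corrected by normexp with an offset of 50, arrays were brought to one distribution by quantiles, and log2 was taken, with limma 3.58.1 in R 4.3.3. Each array's background was taken from the lower flank of its own intensity distribution, with the threshold at its 95th percentile. A probe was kept when above it on at least 3 arrays of a group (13481 probes, 8917 genes), and each gene was represented by its brightest kept probe. Of 47312 probes 30110 had 1 gene symbol, 8 several and 17194 none. Symbols came from the platform annotation and RefSeq, with 30089 matched.

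A group-means model over all arrays gave 17 comparisons, with Benjamini-Hochberg adjustment within each over all genes. Errors are moderated standard errors. The procedure was tested on simulated data with independent noise and no chip effect. In the measured arrays the median residual correlation was 0.179 within a chip and -0.0809 between chips. The simulation therefore cannot show how chips affect the calls. The members and lists were chosen with earlier results of these data known. Named members were 26 fixed ones (21 above background), up to 8 in each direction called with both inhibitors at 48 h, the 2 with the largest mean change at 48 h in each class, and any called at 6 h or between the inhibitors (0), which gave 36. From each list outside the members the 2 genes with the largest mean change and a few fixed ones were named.

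Same-numbered replicates deviated together by the rule of every correlation above 0.1 between the inhibitors at 6, 12 and 24 h (0.15 to 0.424) and between 48 and 6 h (0.104 to 0.249), but not otherwise. Alternatives covered the deposited values, background correction, scaling, probe filter, probe choice, variance model, arrays in the fit, chip, replicate block and leaving out each array.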

Additional observations from a re-analysis of the deposited data

Results flagged for a closer look

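Among 171 groups of 4 arrays checked, covering the levels of named members and the median differences of gene sets, 11 held 1 array apart from the other 3 by Dixon's criterion. Chance gives about 1 in 20. In the controls ATP5F1E replicate 4 had a log2 level of 9.767 against 9.53 to 9.56 in the others, and ATP5PO replicate 1 had 13.07 against 13.16 to 13.18 in the others. With SNS-314 at 48 h ATP5F1D replicate 4 was at 11.534, NDUFAF6 replicate 4 at 9.6671 and SDHAF1 replicate 1 at 8.6433. The other SNS-314 arrays lay at 11.345 to 11.377 for ATP5F1D, 9.3406 to 9.3455 for NDUFAF6 and 8.9523 to 9.0156 for SDHAF1. In NDUFAF6 and SDHAF1 the arrays that stood apart were still below the controls.

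For the members' median difference from the control mean, AZD1152 replicate 3 at 18 h was at -0.046959 and control replicate 1 at -0.060134, both lowest of their groups. Control replicate 1 was also lowest for the subunits alone, at -0.071102. For complex I SNS-314 replicate 2 at 24 h was lowest at -0.080968, for complex II control replicate 3 at -0.13974, and for complex IV SNS-314 replicate 4 at 48 h was highest at 0.085873.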

How the results depend on the processing

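Of 6748 recomputed values of single members 6577 stayed on the same side of the threshold, and 116 lost and 53 gained a call. A change of sign was counted only where the reported or the recomputed value was called. By that count 2 reversed, when the probes of a gene were averaged: ATP5IF1 with AZD1152 at 48 h (-0.051) and SDHAP1 with SNS-314 at 24 h (-0.026). Of 317 recomputed group medians 309 moved by less than the spread between arrays. Scaling moved the median of all genes most, by -0.0501, from 6 to 48 h with SNS-314 under the 75th percentile. The number of members called differed from the reported one by over 1.5 times as follows, and the cause was not tested. For AZD1152 it was 1 in place of 0 at 6 h with only the groups compared. At 18 h it was 0 in place of 4 without the filter on dim probes or with only the groups compared, 8 with chip as a random block and 12 with chip as a fixed block. At 24 h it was 1 in place of 2 without the filter or with probes averaged, and 6 with chip fixed, and at 48 h it was 10 in place of 17 without the filter. For SNS-314 it was 0 in place of 2 at 12 h under 75th percentile scaling, without the filter or with only the groups compared, and 1 with chip fixed. At 18 h it was 1 in place of 0 with the deposited values and 2 with chip random or fixed. At 24 h it was 4 in place of 2 with the deposited values, without background correction, with trended variances or with chip random, and 5 with chip fixed. From 6 to 48 h with SNS-314 it was 16 in place of 8 under 75th percentile scaling, 4 without the filter and 13 with chip fixed.

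The replicate block gave, for AZD1152, 1 at 6 h, 1 at 12 h, 9 at 18 h and 4 at 24 h. With SNS-314 it gave 3 at 18 h and 6 at 24 h. The numbers did not pair these arrays with the controls. In the comparisons they did pair, the block gave 0 between the inhibitors and 17 and 12 from 6 to 48 h, all within 1.5 times. Under 75th percentile scaling the split of higher and lower calls was 3 and 1 for AZD1152 at 18 h (2 and 2 as reported), 2 and 0 at 24 h (1 and 1), and 1 and 12 for SNS-314 at 48 h (3 and 12). Leaving out single arrays gave 0 to 7 for AZD1152 at 18 h, 1 to 2 at 24 h and 12 to 15 at 48 h. It gave 0 to 2, 0 to 1, 1 to 3 and 12 to 16 for SNS-314 at 12, 18, 24 and 48 h, 9 to 12 and 4 to 8 from 6 to 48 h, and 0 in the other comparisons. Signal near background limits NDUFS1, NDUFV3, UQCR11 and SDHAF4.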
